A study of Mus musculus with 15 samples.

Results

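A set of 10 innate immune genes that sense microbial and danger signals were followed through a mouse lung data set. They are the Toll-like receptor genes Tlr2, Tlr4 and Tlr7, the co-receptor gene Cd14, the adaptor gene Myd88, and the inflammasome genes Nlrp3, Pycard, Casp1, Casp4 and Gsdmd. They were taken by symbol, and all 10 have a row among the 14766 genes of the deposited table. RNA was sequenced from lung tissue of 15 wild-type mice, 5 in each of 3 groups. Control mice received normal saline. OVA mice were sensitised with ovalbumin by intraperitoneal injection and then challenged with it as an aerosol, an induction used as a model of allergic asthma. OVA_Rg3 mice had the same induction and received 20 mg/kg of ginsenoside Rg3, a triterpene saponin of ginseng, by gavage. The strain, sex and age of the mice are not given in the sources used here. All groups share the wild-type genotype, and no group received Rg3 without ovalbumin.

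Toll-like receptors recognise conserved microbial molecules. TLR2 binds bacterial lipopeptides with TLR1 or TLR6, TLR4 binds lipopolysaccharide together with MD-2 after CD14 has handed it over, and TLR7 detects single-stranded RNA in endosomes. All of these receptors can signal through MyD88 to NF-kappaB. Inflammasomes are cytosolic platforms: NLRP3 recruits the adaptor ASC, encoded by Pycard, which gathers caspase-1, and caspase-1 matures interleukin 1 beta and interleukin 18 and cuts gasdermin D to open pores in the plasma membrane. Caspase-11, the mouse product of Casp4, binds cytosolic lipopolysaccharide directly and cuts gasdermin D as well.

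The deposited values are taken here to be FPKM, fragments scaled by transcript length and by the size of the library, so levels can be compared between genes. Mitochondrially encoded transcripts held 18.9% to 29.3% of the summed values in control libraries, 46.2% to 79.8% in OVA libraries and 41.6% to 70.4% in OVA_Rg3 libraries. Each value is relative to the total of its library, and the median gene was lower by 0.73 on the log2 scale in OVA than in control lungs. Each change is therefore given as deposited and again after median-ratio scaling, which divides each library by its median ratio to a common reference and brought that median to -0.02. The values imply 6.22 to 9.01 M fragments in controls 1, 3, 4 and 5 and 2.83 to 3.63 M in the OVA libraries. They imply 1.60 to 3.87 M in OVA_Rg3 2 to 5, but only 0.833 M in control 2 and 0.216 M in OVA_Rg3 1. Depth therefore differed between the control and OVA groups. Control 2, OVA 4 and OVA_Rg3 1 also held liver transcripts, with summed values of 372, 186 and 1440 for 6 liver markers. The muscle transcript Acta1 stood at 79.2, 38.1 and 310 FPKM in the same libraries. Results are therefore also given without these 3 libraries. OVA_Rg3 5 and OVA_Rg3 3 had smaller liver sums, 70.4 and 13.8, and were kept.

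Averaged over the 15 libraries, Cd14 had the highest level of the 10 genes, 18.6 FPKM, followed by Gsdmd with 15.4, Myd88 with 9.59, Casp4 with 7.33 and Casp1 with 6.61. Pycard averaged 2.05, Tlr4 1.51 and Tlr2 1.42. Tlr7, at 0.781, and Nlrp3, at 0.160, stood near the detection limit. By this average Cd14 ranked 1680 and Nlrp3 ranked 14630 of the 14766 genes. Neighbours in this order had overlapping ranges in each group, except Casp1 and Pycard, which did not overlap in OVA_Rg3 lungs. Of the set, 9 genes reached 1 FPKM in at least 5 libraries and were tested, and Nlrp3 did not.

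**Figure D1:**
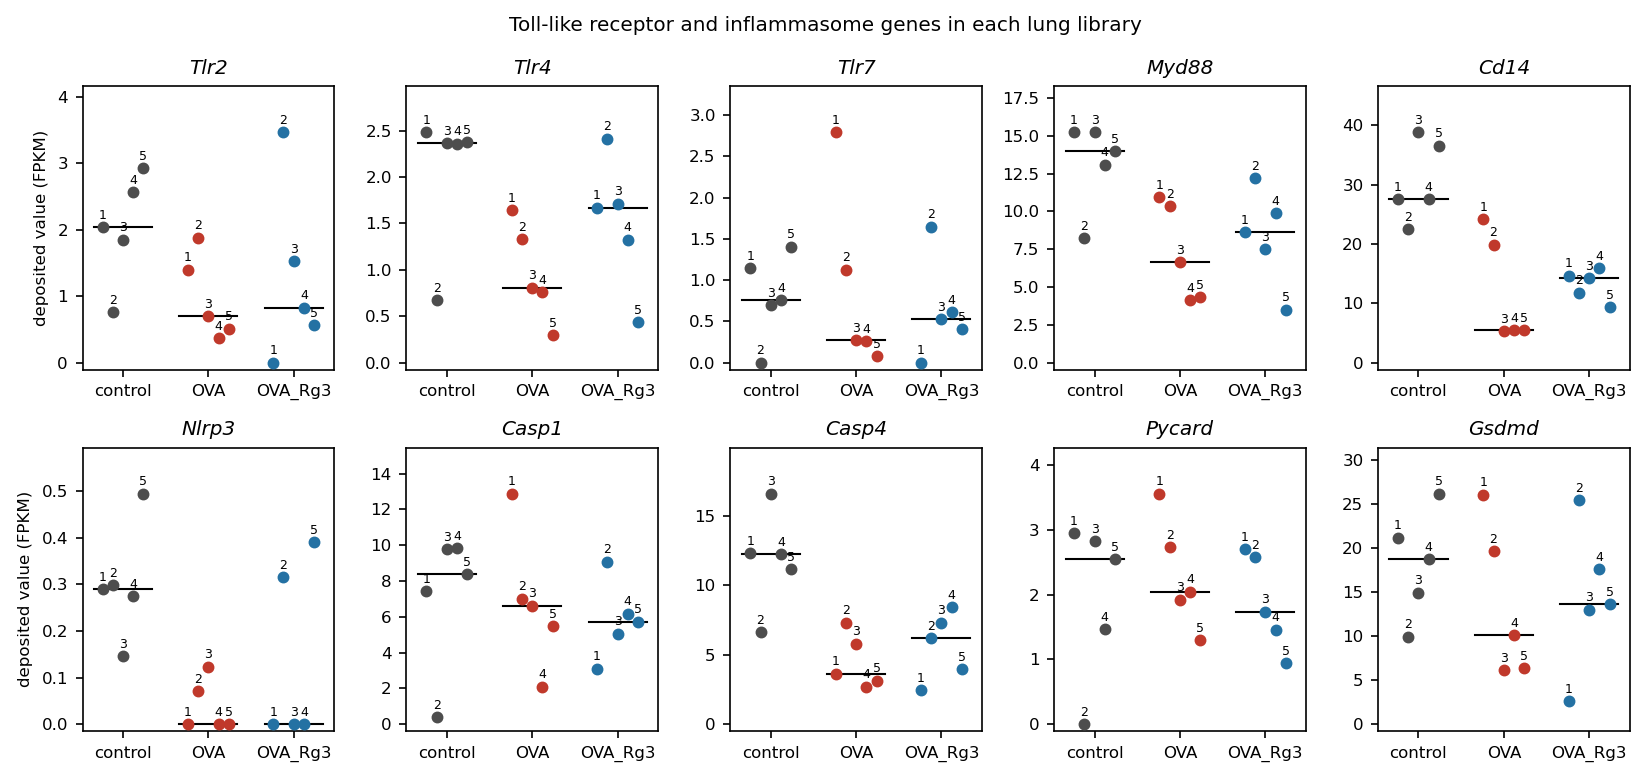
Deposited value (FPKM) of each of the 10 genes in the 15 lung libraries, with the replicate number beside each point and the group median as a line. Cd14 and Casp4 lay lower in most OVA and OVA_Rg3 libraries than in control libraries, and Nlrp3 stayed under 0.5 FPKM in every library.

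In OVA lungs Cd14, Casp4 and Myd88 fell against control lungs, and none of the 9 tested genes rose, on the deposited scale. This share, 3 of 9, stands beside 51.2% of all 12137 tested genes that were called lower and 0.577% called higher (limma, Benjamini-Hochberg adjusted p under 0.05). The median change of the 9 genes was -0.62 on the log2 scale, against -0.73 for all tested genes. After median-ratio scaling none of the 9 was called lower, beside a background of 8.39%, and Pycard alone was called higher, beside a background of 6.32%. Without control 2, OVA 4 and OVA_Rg3 1, 4 of the 9 genes were lower as deposited, Tlr4 joining the first 3, beside 54.2% of all genes. After scaling without them 2, Casp1 and Pycard, were higher, beside 10.1%.

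Cd14 had the largest fall of the 9. Its values were 27.5, 22.5, 38.8, 27.5 and 36.5 FPKM in controls 1 to 5 and 24.2, 19.9, 5.35, 5.50 and 5.42 in OVA 1 to 5. OVA 3, OVA 4 and OVA 5 were far below every control, OVA 2 was just below, and OVA 1 lay within the control range. The log2 change was -1.54 ± 0.37 (SE, n = 5 per group), with a limma adjusted p of 0.00397, and the call held when any 1 library was left out. After scaling the change was -0.64, with an adjusted p of 0.0809. The 3 OVA libraries with the lowest Cd14 had mitochondrial shares of 70.5%, 79.8% and 78.6%, whereas OVA 1 and OVA 2 had 46.2% and 49.9%. After scaling Cd14 was still 9.32, 9.87 and 10.6 in OVA 3, 4 and 5, against 21.5 and 19.8 in OVA 1 and 2. The part of the mitochondrial share in this difference among OVA libraries was not tested. In lung tissue as a whole, fewer cells of a type and less RNA per cell cannot be told apart.

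The receptor genes themselves were scarce. Tlr4, the lipopolysaccharide receptor, measured 2.48, 0.672, 2.37, 2.36 and 2.37 FPKM in controls 1 to 5. It measured 1.65, 1.33, 0.808, 0.762 and 0.295 in OVA 1 to 5. Apart from control 2, every control was above every OVA library. The log2 change was -0.62 ± 0.28 (SE, n = 5 per group) and missed the threshold (limma adjusted p = 0.0666), and it passed without the 3 libraries named above, at -0.80 with an adjusted p of 0.0246. After scaling the change was -0.11, with a 95% interval from -0.54 to 0.32.

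Tlr2, the lipopeptide receptor, gave 2.03, 0.761, 1.85, 2.56 and 2.93 FPKM in controls 1 to 5. The OVA libraries gave 1.40, 1.88, 0.697, 0.366 and 0.513. The groups overlapped, and the log2 change of -0.63 had a 95% interval from -1.35 to 0.10 (limma adjusted p = 0.130). These OVA values correspond to between 4.01 and 19.6 fragments on the Tlr2 transcript, so the low ones rest on few fragments. After scaling the change was -0.12, with an interval from -0.72 to 0.47.

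Tlr7, the endosomal RNA receptor, had a wider range in OVA lungs than Tlr2 or Tlr4. Controls 1 to 5 had 1.14, 0, 0.698, 0.757 and 1.41 FPKM, and OVA 1 to 5 had 2.79, 1.12, 0.273, 0.260 and 0.0770. OVA 1 was the highest of all 15 libraries and OVA 5 the lowest of those not listed at 0. The log2 change was -0.03, with an interval from -0.74 to 0.69. In 3 of the OVA libraries the value amounts to between 0.947 and 3.68 fragments on the longest transcript, and Tlr7 was not called. A fit with a weight for each library called it lower (-0.56, limma adjusted p = 0.0190). That fit called 8 of the 9 genes and, in either direction, 10020 of all 12137 genes.

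Myd88, which links these receptors to their kinases, was called lower in OVA lungs as deposited only. Controls 1 to 5 had 15.2, 8.21, 15.2, 13.1 and 14.0 FPKM, and OVA 1 to 5 had 10.9, 10.3, 6.64, 4.13 and 4.33. Each OVA library was below each control except control 2. The log2 change was -0.84 ± 0.32 (SE, n = 5 per group; limma adjusted p = 0.0382), and it lost the call when control 1, 3, 4 or 5 or OVA 3, 4 or 5 was left out, where the adjusted p reached 0.104. After scaling the level was 7.11 to 10.7 in controls and 7.41 to 11.6 in OVA lungs, and the change was 0.03, with an interval from -0.35 to 0.42.

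**Figure D2:**
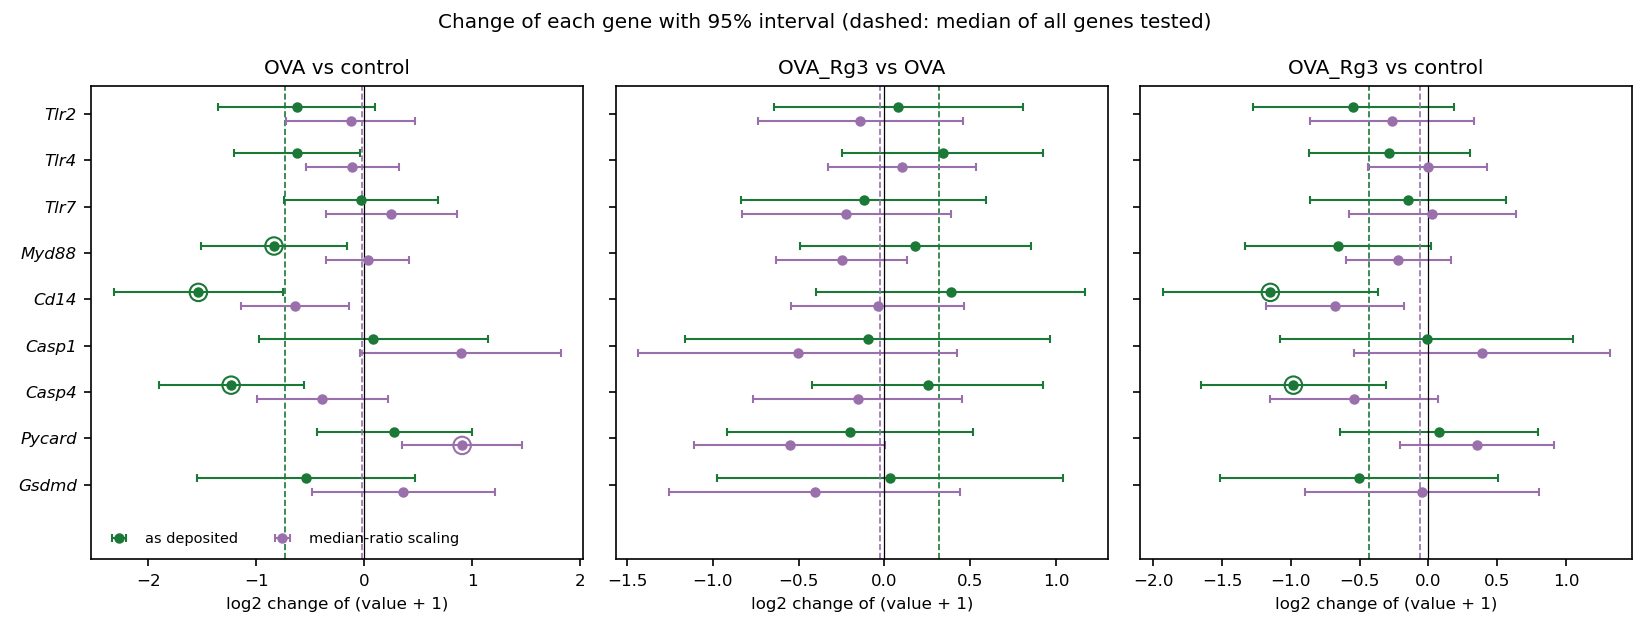
Log2 change of (FPKM + 1) for the 9 tested genes in each comparison, with 95% intervals, as deposited (green) and after median-ratio scaling (purple), and with the median of all tested genes as dashed lines. Called changes are circled: Cd14, Casp4 and Myd88 against control as deposited, Pycard after scaling, and Cd14 and Casp4 for OVA_Rg3 against control.

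Of the inflammasome genes, Nlrp3 was at the edge of detection. Controls 1 to 5 had 0.290, 0.298, 0.147, 0.275 and 0.495 FPKM, OVA 2 and OVA 3 had 0.0714 and 0.123, and OVA 1, 4 and 5 were listed at 0. All OVA libraries were below all controls as deposited, as were OVA libraries for 32.1% of tested genes, and 4 of 5 were below after scaling. In a fit without the filter the log2 change was -0.32 (limma adjusted p = 0.0875), and -0.20 after scaling (adjusted p = 0.417). The values of control 2 and OVA 2 each amount to about 1 fragment, 0.999 and 0.991, on the longest transcript, and the largest control value to 12.4.

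Pycard, encoding the adaptor ASC, was listed at 2.96, 0, 2.83, 1.47 and 2.55 FPKM in controls 1 to 5. It was listed at 3.56, 2.74, 1.92, 2.05 and 1.29 in OVA 1 to 5, so the groups overlapped as deposited, with a log2 change of 0.28 ± 0.34 (limma adjusted p = 0.490). After scaling the 5 OVA libraries spanned 2.53 to 3.68 and the 5 controls 0 to 1.99, without overlap, which held for 7% of tested genes in this direction. The scaled change was 0.91 ± 0.26 (SE, n = 5 per group; limma adjusted p = 0.0305). The call was lost without control 4, OVA 1, OVA 3 or OVA 4, where the adjusted p reached 0.0712, with rescaling to the non-mitochondrial total, where it was 0.130, and with scaling and a pseudocount of 0.1, where it was 0.109. With control 2, where Pycard was listed at 0, left out together with OVA 4 and OVA_Rg3 1, the scaled change was 0.60 (adjusted p = 0.0220).

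Casp1 and Casp4 are neighbours on chromosome 9. The deposited table places Casp1 at chr9:5298517-5307265 and Casp4 at chr9:5308828-5336783 on the plus strand, positions that match build GRCm38. Casp1, the inflammasome caspase, had 7.43, 0.376, 9.78, 9.85 and 8.39 FPKM in controls 1 to 5 and 12.9, 7.02, 6.63, 2.10 and 5.48 in OVA 1 to 5. Control 2 was the lowest library of all, at under 1 implied fragment (0.468), and OVA 1 was the highest. Its log2 change was 0.08, with a 95% interval from -0.98 to 1.15, and after scaling it was 0.89 ± 0.44 (limma adjusted p = 0.191). Without the 3 libraries that stand apart the scaled change was 0.68, with an adjusted p of 0.0240, and the deposited one was -0.19. A fit with a weight for each library as deposited called Casp1 lower (-0.79, adjusted p = 0.0344), beside 10020 of all 12137 genes called in either direction.

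Casp4, the lipopolysaccharide-binding caspase, fell as deposited. Controls 1 to 5 had 12.3, 6.65, 16.6, 12.2 and 11.2 FPKM, against 3.64, 7.32, 5.79, 2.71 and 3.14 in OVA 1 to 5. OVA libraries other than OVA 2 were below every control. The log2 change was -1.23 ± 0.32 (SE, n = 5 per group; limma adjusted p = 0.00579), a call that held when any 1 library was left out. After scaling the change was -0.39, with a 95% interval from -0.996 to 0.222, and the groups overlapped.

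The 250 bases before the RefSeq starts of Casp1, Casp4, Myd88 and Pycard are printed because the first pair lie side by side and the last pair are the adaptors of the receptor and inflammasome branches. They are RefSeq promoter sequences on build GRCm38.p6, read 5′ to 3′ on the gene's strand, and capitals mark matches to the kappaB motif or to the interferon-stimulated response element (GAAA, any 2 bases, GAAA), searched on both strands. The windows are chr9:5298267-5298516 (plus), chr9:5308599-5308848 (plus), chr9:119340019-119340268 (minus) and chr7:127993868-127994117 (minus). RefSeq lists more than 1 start for Casp4, and the window of the most upstream one is shown, which lies slightly downstream of the start in the deposited table. The deposited table places Myd88 at chr9:119335934-119341411 on the minus strand, so its RefSeq start lies well downstream of the start in the table and the printed window lies within the gene as the table gives it.
Casp1: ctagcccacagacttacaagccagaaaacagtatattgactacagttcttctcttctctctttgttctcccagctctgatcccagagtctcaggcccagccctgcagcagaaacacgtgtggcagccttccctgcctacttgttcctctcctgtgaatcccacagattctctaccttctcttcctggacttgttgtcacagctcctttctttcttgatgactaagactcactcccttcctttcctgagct
Casp4: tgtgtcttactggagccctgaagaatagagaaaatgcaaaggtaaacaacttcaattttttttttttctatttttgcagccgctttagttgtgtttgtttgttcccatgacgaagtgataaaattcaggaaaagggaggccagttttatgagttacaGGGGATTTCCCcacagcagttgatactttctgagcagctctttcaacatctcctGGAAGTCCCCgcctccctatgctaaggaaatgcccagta
Myd88: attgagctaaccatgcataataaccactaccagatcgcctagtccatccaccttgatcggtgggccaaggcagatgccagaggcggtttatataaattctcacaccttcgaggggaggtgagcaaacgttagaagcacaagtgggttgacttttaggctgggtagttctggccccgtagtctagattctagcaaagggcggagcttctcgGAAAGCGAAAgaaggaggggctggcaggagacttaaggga
Pycard: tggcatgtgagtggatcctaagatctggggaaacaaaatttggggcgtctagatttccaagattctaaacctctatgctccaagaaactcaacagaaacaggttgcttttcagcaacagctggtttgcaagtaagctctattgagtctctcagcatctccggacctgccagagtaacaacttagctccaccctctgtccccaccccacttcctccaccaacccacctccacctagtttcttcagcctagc
The Casp4 window holds kappaB matches around GGGATTTCCC, which overlap one another and lie about 92 bases before the start, and another match, GGAAGTCCCC, 39 bases before it. The kappaB motif was found in 7.25% of 32851 windows of the same length. The Myd88 window holds GAAAGCGAAA, 40 bases before the RefSeq start, and 2.98% of windows hold that element. Neither motif occurs in these letters of Casp1 or Pycard, which says nothing about the factors. Promoter sequences matched 6 of the 10 genes. The window of Tlr2 and a window of Nlrp3, which are not printed, also hold kappaB matches. A match is a description of the letters and not a site of binding.

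Gsdmd, whose product forms the pores of pyroptosis, had 21.2, 9.94, 14.9, 18.8 and 26.2 FPKM in controls 1 to 5. OVA 1 and OVA 2 had 26.1 and 19.7, and OVA 3 to 5 had 6.14, 10.1 and 6.35. OVA 1 and 2 lay within the control range with OVA 4, and OVA 3 and 5 lay below it. Its log2 change was -0.54, with a 95% interval from -1.55 to 0.47, and after scaling it was 0.36, with an interval from -0.49 to 1.21.

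**Figure D3:**
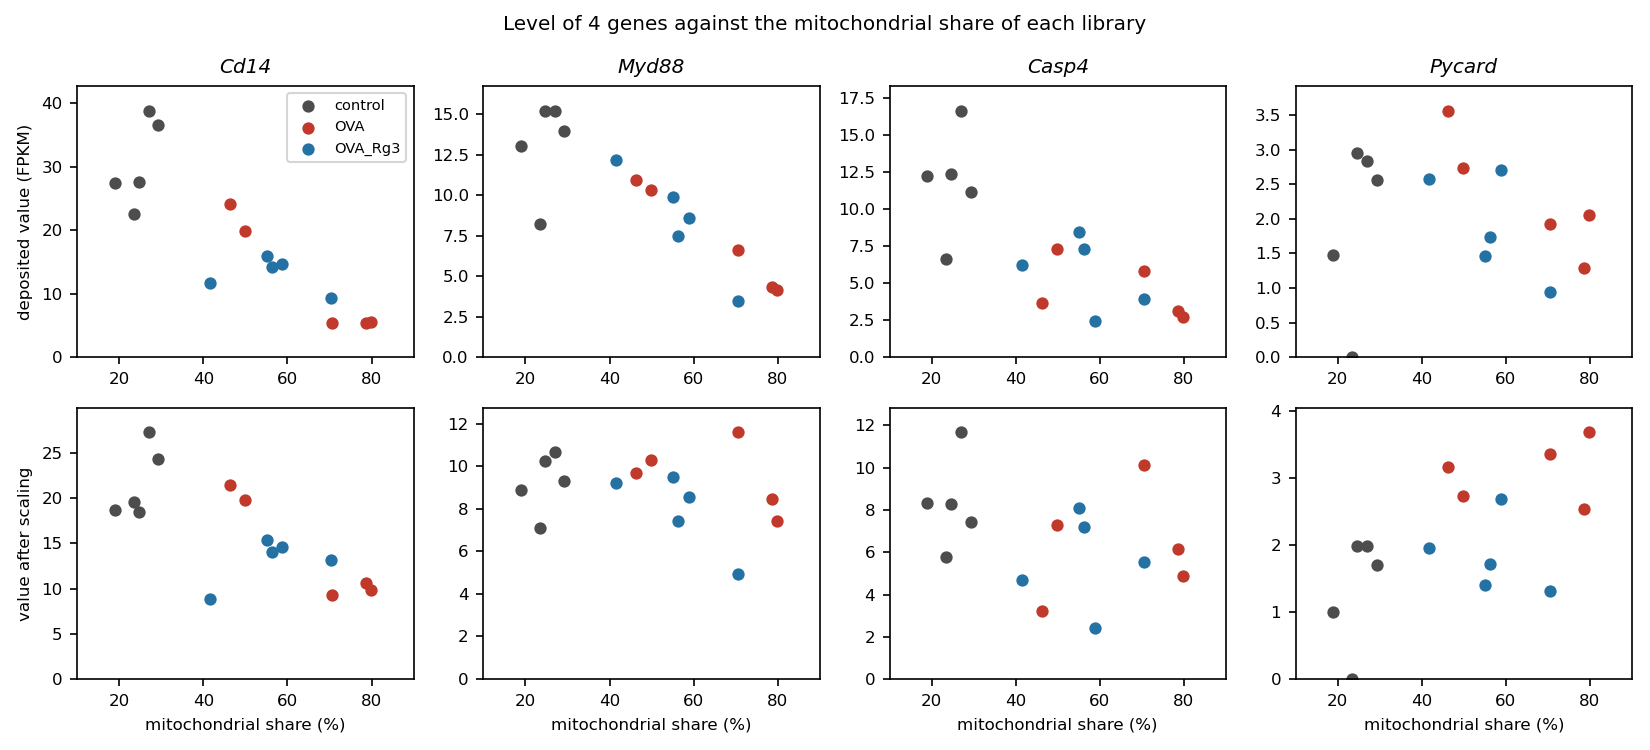
Level of Cd14, Myd88, Casp4 and Pycard in each library against the share of the summed values held by mitochondrial transcripts (%), as deposited in the upper row (FPKM) and after median-ratio scaling in the lower row. OVA 3, 4 and 5, with shares of 70.5% to 79.8%, had the lowest deposited OVA values of Cd14, and after scaling the Pycard values of OVA libraries lay above those of controls.

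Adding Rg3 to ovalbumin gave no called change in any of the 9 genes. No gene of all 12137 was called between OVA_Rg3 and OVA lungs by limma, a background of 0%, although 1756 genes had an unadjusted p under 0.05, none of them among the 9. The median change of the 9 genes was 0.08 on the log2 scale, beside 0.32 for all tested genes, and after scaling -0.22 beside -0.02. A fit with a weight for each library called 4 of the 9 higher, Cd14, Casp4, Tlr4 and Tlr2, and it called 57.2% of all genes higher.

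Among the receptors and their partners, Cd14 measured 14.7, 11.8, 14.3, 16.0 and 9.30 FPKM in OVA_Rg3 1 to 5, between the high and the low OVA libraries. The log2 change against OVA was 0.39, with a 95% interval from -0.40 to 1.17. Tlr4 measured 1.67, 2.41, 1.71, 1.33 and 0.437, and its change was 0.34 (interval -0.24 to 0.92). The first 3 values lay above the highest OVA library, OVA 1 (1.65). Of these OVA_Rg3 1 and 3 were only slightly above it, and OVA_Rg3 1 rests on 1.47 implied fragments. Tlr2 measured 0, 3.47, 1.53, 0.828 and 0.559, and OVA_Rg3 2 was the highest of all 15 libraries. Its change was 0.08 (interval -0.65 to 0.81). Tlr7 measured 0, 1.65, 0.527, 0.612 and 0.405, a change of -0.12 (interval -0.84 to 0.59). The zeros of Tlr2 and Tlr7 in OVA_Rg3 1 come from the shallowest library. Myd88 measured 8.62, 12.2, 7.52, 9.89 and 3.50, and its change was 0.18 (interval -0.49 to 0.86).

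The inflammasome genes also overlapped between the OVA_Rg3 and OVA groups. Nlrp3 measured 0.316 and 0.390 FPKM in OVA_Rg3 2 and 5 and was listed at 0 in OVA_Rg3 1, 3 and 4. Casp1 measured 3.11, 9.08, 5.06, 6.18 and 5.73 in OVA_Rg3 1 to 5, all within the OVA range, with a log2 change of -0.10 (95% interval -1.16 to 0.96). Casp4 measured 2.45, 6.21, 7.32, 8.42 and 3.95, a change of 0.25 (interval -0.42 to 0.92). Gsdmd measured 2.62, 25.4, 13.0, 17.6 and 13.6, with a change of 0.03 (interval -0.98 to 1.04), and its value in OVA_Rg3 1 amounts to about 1 fragment (1.01). These intervals reach to about 1 on the log2 scale. Larger changes could also go uncalled after adjustment over all genes, as for Txnip (1.35, limma adjusted p = 0.271).

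Pycard measured 2.71, 2.58, 1.74, 1.46 and 0.938 FPKM in OVA_Rg3 1 to 5. After scaling these became 2.69, 1.95, 1.71, 1.40 and 1.32, and 4 of the 5 lay below the lowest OVA library. The scaled change against OVA was -0.55, with a 95% interval from -1.11 to 0.005 and a limma adjusted p of 0.576, so the decrease was not called. On the deposited scale it was -0.20 (interval -0.92 to 0.52).

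Against control lungs, Cd14 and Casp4 fell in OVA_Rg3 lungs as deposited, 2 of 9 beside 15.8% of all genes called lower. This comparison shares its control libraries with that of OVA, so the results are not independent. Without control 2, OVA 4 and OVA_Rg3 1 the same 2 genes were called, beside 18.6%. For Cd14 all 5 OVA_Rg3 libraries, 9.30 to 16.0 FPKM, lay below all 5 controls, 22.5 to 38.8, a separation in this direction seen for 18.5% of tested genes. It also held after scaling, where OVA_Rg3 spanned 8.90 to 15.3 and controls 18.5 to 27.3, beside 7.53% of genes. The log2 change of Cd14 was -1.15 ± 0.37 (limma adjusted p = 0.0430) as deposited and -0.68 ± 0.24 (adjusted p = 0.0883) after scaling. For Casp4 the change was -0.98 ± 0.32 (adjusted p = 0.0437), and -0.54 (adjusted p = 0.263) after scaling, where none of the 9 was called lower beside 4.75% of all genes. The Cd14 call was lost without any 1 of the controls other than control 2 or any 1 of the OVA_Rg3 libraries, where the adjusted p reached 0.112. The Casp4 call was lost without control 1, 3, 4 or 5 or OVA_Rg3 1 or 5, where it reached 0.118.

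The other genes did not pass in that comparison on either scale. Myd88 came nearest, with a log2 change of -0.66 and an interval from -1.33 to 0.02 (limma adjusted p = 0.152). Tlr2 changed by -0.55, Gsdmd by -0.50, Tlr4 by -0.29 and Tlr7 by -0.15, and Casp1 and Pycard had values of -0.01 and 0.08. The smallest adjusted p among these last 6 was 0.260.

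**Figure D4:**
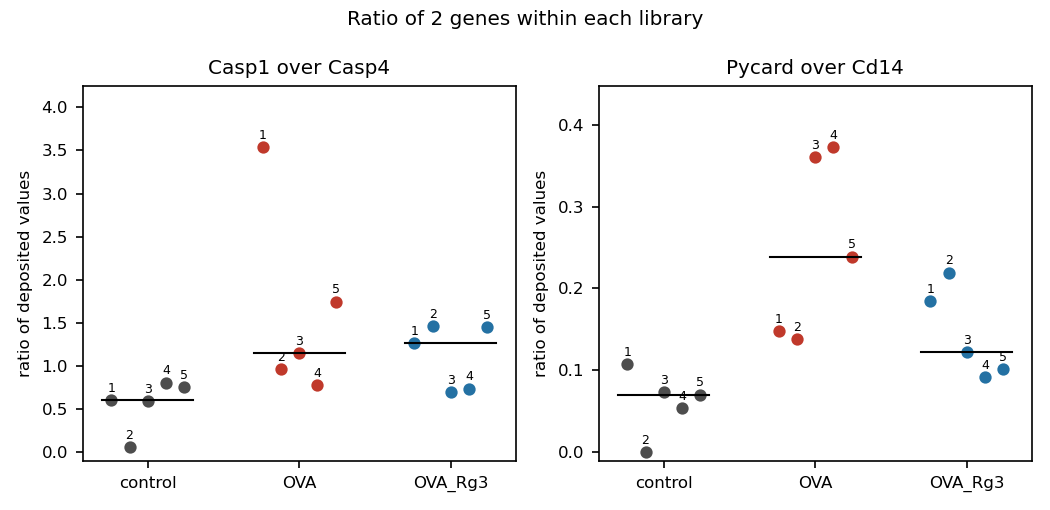
Ratio of deposited values of Casp1 to Casp4 (left) and of Pycard to Cd14 (right) within each library, with the replicate number beside each point and the group median as a line. The ratio of Casp1 to Casp4 was 0.0565 to 0.804 in controls and 0.773 to 3.54 in OVA libraries.

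A ratio of genes within a library does not depend on the scaling. These ratios were chosen after the values were seen and have no test. Casp1 over Casp4 had a median of 0.603 in controls, 1.14 in OVA and 1.27 in OVA_Rg3 libraries. The OVA_Rg3 median is the value of OVA_Rg3 1, where Casp1 and Casp4 rest on only 1.00 and 0.761 implied fragments. OVA_Rg3 libraries spanned 0.692 to 1.46, and OVA_Rg3 3 and 4, at 0.692 and 0.734, lay within the control range. Control 4 (0.804) was the only control above an OVA library, OVA 4 (0.773), and without control 2 the controls spanned 0.588 to 0.804. Pycard over Cd14 was 0 to 0.107 in controls, 0.138 to 0.373 in OVA and 0.0915 to 0.219 in OVA_Rg3 libraries. Every OVA library was above every control in this ratio, and the ratio of 0 was that of control 2. Among the 9 tested genes Pycard had the highest deposited change in OVA lungs (0.28) and Cd14 the lowest (-1.54). The choice of this pair favours such a separation, and no share over other pairs of genes was computed.

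Each gene was also set beside the tested genes whose scaled values, centred on their own mean, were closest over the 15 libraries. Among the tested genes of the set, which leave out Nlrp3, the closest pair was Tlr4 and Myd88, with a root mean square difference of 0.25 on the log2 scale. Their own spreads were about as large, 0.28 and 0.26. Myd88 ranked only 196 by closeness to Tlr4 among all tested genes. For Tlr7 the nearest genes were Nfkbid (0.15) and Gpr183 (0.16), against a spread of 0.44 for Tlr7 itself. For Casp4 they were Runx1 (0.20) and Ift46 (0.21), with a spread of 0.48. For Cd14 the nearest, Srsf7 and Sfi1, were at 0.26 and 0.27 against a spread of 0.46. The libraries share these groups and depths, so closeness is a description.

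Other genes of the same pathways were grouped by role. Of 3 tested other Toll-like receptors, 1 fell in OVA against control lungs as deposited, Tlr3, the receptor for double-stranded RNA (-0.93, limma adjusted p = 0.0170), a call lost after scaling (-0.30, adjusted p = 0.420). Of 7 co-receptors and chaperones, 4 fell, Cd36, Lbp, Cnpy3 and Unc93b1, a share close to the 51.2% of all genes called lower. After scaling 2 of the 7, Lbp and Cnpy3, were called lower, beside 8.39% of all genes. Lbp, whose product delivers lipopolysaccharide to CD14, ranged from 17.1 to 39.7 FPKM in controls and from 2.59 to 7.50 in OVA lungs. Its log2 change was -2.21 as deposited (adjusted p = 0.000369) and -1.36 after scaling (adjusted p = 0.00411). It was lower against control in OVA_Rg3 lungs on both scales too, at -1.37 (adjusted p = 0.0198) and -0.92 (adjusted p = 0.0429). Of 13 adaptors and kinases, 4 fell as deposited (Traf3, Tab1, Traf6 and Map3k7), a smaller share than that of all genes. After scaling none of the 13 fell and 2 rose, Irf5 and Irak4, beside 8.39% of all genes called lower and 6.32% higher. The median changes of these lists as deposited were -0.41, -1.40 and -0.53, beside -0.73 for all genes.

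Among 5 tested brakes of Toll-like receptor signalling, Sigirr fell (-1.05, limma adjusted p = 0.0146), though not after scaling (-0.35, adjusted p = 0.349). None of 5 tested other inflammasome sensors and partners was called, with a list median of -0.38. Of 6 interleukin 1 family genes, Il1rn rose and Il18 fell. Il1rn, which encodes the interleukin 1 receptor antagonist, was 0 to 1.42 FPKM in controls and 1.18 to 17.8 in OVA lungs, a change of 1.74 (adjusted p = 0.00474) as deposited and 2.26 (adjusted p = 0.00123) after scaling. Il18, a substrate of caspase-1, was 6.73 to 22.0 in controls and 3.52 to 6.61 in OVA lungs, a change of -1.28 (adjusted p = 0.0491) that was -0.41 (adjusted p = 0.679) after scaling. Il33 and Il1a were called higher after scaling only.

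No gene of these 6 lists was called between OVA_Rg3 and OVA lungs. The smallest p in each list belonged, as deposited, to Tlr13, Cd36, Map3k7, Sigirr, Txnip and Il1rn. Of these Il1rn, at 0.860 to 2.20 FPKM in OVA_Rg3 lungs, changed by -1.12 on the log2 scale (limma adjusted p = 0.309). Txnip, whose product binds NLRP3, was 65.0 to 122.8 in OVA_Rg3 and 18.3 to 68.7 in OVA lungs, a change of 1.35 (adjusted p = 0.271). Against control lungs Tlr3, Lbp and Tab1 were lower in OVA_Rg3 lungs as deposited. After scaling Lbp was lower there and Txnip (1.45, adjusted p = 0.0398) and Il1a (0.90, adjusted p = 0.0468) were higher.

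Markers of lung and blood cell types, not all of them known to carry these genes, were summed in each library. The part of these cells in the results was not tested. The 10 markers of monocytes and macrophages summed to 84.0 to 130 FPKM in controls, 43.1 to 185 in OVA and 52.5 to 208 in OVA_Rg3 libraries. OVA 1, which had the highest Casp1 and Tlr7, also had the highest macrophage sum among OVA libraries. It had the highest sums of endothelial and alveolar type 2 markers among them too, 387 and 10042.5, but not of neutrophil, club and ciliated or blood markers. Csf1r and Ccr2 were the 2 of 10 that were lower in OVA lungs as deposited, and after scaling Cd68 and Ly6c2 were among those called higher. The 10 alveolar macrophage markers summed to 108 to 199 in controls and 74.4 to 285 in OVA libraries, but did not move together. As deposited Atp6v0d2 was called higher and Pparg and Plet1 lower, of 8 tested, beside 0.577% and 51.2% of all genes. After scaling Car4 and Atp6v0d2 were higher and Plet1 lower, beside 6.32% and 8.39%. Marco was listed at 0 in every OVA library. Fabp1, in the sum, stood at 91.1 FPKM in control 2 and 44.8 in OVA 4, which held liver transcripts. The 8 neutrophil markers summed to 20.7 to 378 in controls and 20.7 to 47.0 in OVA libraries. Of 5 eosinophil markers only 2 have a row, and they summed to at most 0.355 in controls and 3.51 in OVA libraries. All 6 markers of club and ciliated cells were lower in OVA lungs as deposited, with sums of 64384 to 217255 in controls and 12272 to 65262 in OVA libraries. The 5 blood markers summed to 1692 to 4301 in controls and 4728 to 10096 in OVA libraries, and 4 of them were higher in OVA lungs.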

How the data were processed

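Poly(A) RNA from mouse lung was sequenced in 15 libraries, prepared with the TruSeq kit and all in batch 1, per the labels' protocols. The deposited table is read here as FPKM, made by the authors from reads with Trimmomatic and featureCounts, per the submitters' processing notes. No header names the unit, which was inferred from the values, and TPM over a larger gene set cannot be told apart from it. The notes name the builds GRCm39 and mm39, whereas 13545 of 14766 genes have GRCm38 positions (GENCODE M21). Whether counting used strand is not given in the sources used here.

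Genes with at least 1 FPKM in at least 5 libraries (12137) were tested on log2(FPKM + 1) with limma 3.58.1 in R 4.3.3, with 1 mean per group, a mean-variance trend and robust estimation. A Benjamini-Hochberg adjusted p under 0.05 was called. Fold changes on this scale understate the change of low genes. Scaled values use median ratios over the 10246 genes above 0 in all libraries. Fragments per library were estimated from the step between low values of 1768 single-transcript genes, with 23.9% to 40.3% of low values within 2% of whole steps, against 4% by chance, and fragments of a gene assume its longest coding transcript. They are approximate and cover counting error only. Tables and figures were made with pandas 2.3.3 and matplotlib 3.10.9 in Python 3.11.15.

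The 10 genes and the pathway and marker lists were chosen with earlier results of these data known. All 10 genes are named; of each list, the called gene of smallest p in each direction per comparison is given values, or the gene of smallest p where none was called. Genes closest in pattern are the 2 of smallest root mean square difference. Rescaling, filters, pseudocounts, weights, a replicate block and left-out libraries were tried as alternatives. Genes of the lists with no row were not analysed here, and a few results for list genes are not reported here.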

Additional observations from a re-analysis of the deposited data

Results flagged for a closer look

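In control lungs 3 values stood apart from the other 4 libraries of their group by a gap that took most of the group's range on the log2(FPKM + 1) scale, and all 3 belong to control 2. Tlr4 was 0.671857 FPKM there, with a gap of 0.950 of the range. Myd88 was 8.21354 FPKM (0.749 of the range) and Casp1 was 0.375732 FPKM (0.878 of the range). Of 30 combinations of gene and group examined these 3 passed, and chance passes about 1 in 20. Control 2 is also the shallowest control library, with 0.833 M implied fragments, and holds liver transcripts with a summed value of 372. The part of either in these low values was not tested.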

How the results depend on the processing

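Counts below give the called members and then the called genes, first for OVA lungs against controls, then for OVA_Rg3 against OVA lungs, then for OVA_Rg3 lungs against controls. The fit as reported gave 3 and 6286, 0 and 0, 2 and 2016. With median-ratio scaling the counts were 1 and 1785, 0 and 0, 0 and 939. With quantile normalization the counts were 1 and 1762, 0 and 1, 0 and 1043. With rescaling to the non-mitochondrial total the counts were 0 and 1054, 0 and 0, 0 and 498. With a pseudocount of 0.1 the counts were 3 and 5636, 0 and 1, 0 and 959. With no filter the counts were 3 and 6339, 0 and 0, 0 and 1961. With a filter of 5 in 5 libraries the counts were 3 and 3836, 0 and 2, 2 and 1197. With array weights the counts were 8 and 10020, 4 and 6979, 4 and 7369. With control 2, OVA 4 and OVA_Rg3 1 left out the counts were 4 and 6504, 0 and 2, 2 and 2345. With the same libraries left out and scaling the counts were 2 and 2457, 0 and 2, 0 and 1011. With scaling and no filter the counts were 1 and 1716, 0 and 0, 0 and 782. With scaling and a pseudocount of 0.1 the counts were 0 and 1388, 0 and 1, 0 and 415. With only the 2 groups compared the counts were 4 and 6774, 0 and 0, 2 and 2580. With the replicate number as a block the counts were 3 and 5816, 0 and 0, 0 and 1702. With scaling and the replicate number as a block the counts were 1 and 1783, 0 and 0, 0 and 1058.

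The replicate numbers showed no sign of pairing the mice, though these values cannot exclude it. Same-numbered libraries of different groups had correlations of their deviations from -0.385 to 0.317, and 5 of 15 such pairs were over 0.1. The same number gave the best match in 3 of the 15. The block is therefore given only as an alternative. The Cd14 and Casp4 calls of OVA_Rg3 against control were lost under the block (limma adjusted p = 0.0667 and 0.0570), without a filter and with a pseudocount of 0.1. Tlr2, Tlr4, Tlr7 and Pycard failed the filter of 5, and Nlrp3 could be fitted only without a filter. Combinations of scaling with no filter, a pseudocount of 0.1 or the block were chosen after seeing the data. The cause of the differences between settings was not tested.

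Log2 changes that took the opposite sign to the reported one are listed by setting. With median-ratio scaling, with scaling and no filter, with scaling and the replicate number as a block these were Tlr7 0.25, Myd88 0.032, Gsdmd 0.36 for OVA against control and Tlr2 -0.14, Myd88 -0.25, Cd14 -0.038, Casp4 -0.15, Gsdmd -0.41 for OVA_Rg3 against OVA and Tlr7 0.028, Casp1 0.39 for OVA_Rg3 against control. With quantile normalization these were Tlr7 0.31, Myd88 0.028, Gsdmd 0.32 for OVA against control and Tlr2 -0.092, Myd88 -0.23, Cd14 -0.010, Casp4 -0.17, Gsdmd -0.38 for OVA_Rg3 against OVA and Tlr4 0.043, Tlr7 0.13, Casp1 0.40 for OVA_Rg3 against control. With rescaling to the non-mitochondrial total these were Tlr7 0.39, Myd88 0.082, Gsdmd 0.43 for OVA against control and Tlr2 -0.28, Myd88 -0.075, Gsdmd -0.26 for OVA_Rg3 against OVA and Tlr4 0.19, Tlr7 0.085, Myd88 0.0071, Casp1 0.77, Gsdmd 0.17 for OVA_Rg3 against control. With a pseudocount of 0.1 these were Tlr2 -0.19 for OVA_Rg3 against OVA and Casp1 0.18 for OVA_Rg3 against control. With array weights these were Casp1 -0.79, Pycard -0.21 for OVA against control and Tlr7 0.28, Casp1 0.29 for OVA_Rg3 against OVA and Pycard -0.31 for OVA_Rg3 against control. With control 2, OVA 4 and OVA_Rg3 1 left out these were Casp1 -0.19, Pycard -0.055 for OVA against control and Myd88 -0.00032 for OVA_Rg3 against OVA and Pycard -0.38 for OVA_Rg3 against control. With the same libraries left out and scaling these were Tlr7 0.19, Myd88 0.051, Gsdmd 0.23 for OVA against control and Myd88 -0.36, Cd14 -0.18 for OVA_Rg3 against OVA and Tlr7 0.046, Casp1 0.10, Pycard -0.011, Gsdmd 0.32 for OVA_Rg3 against control. With scaling and a pseudocount of 0.1 these were Tlr7 0.60, Myd88 0.034, Gsdmd 0.38 for OVA against control and Tlr2 -0.61, Myd88 -0.28, Cd14 -0.037, Casp4 -0.18, Gsdmd -0.47 for OVA_Rg3 against OVA and Tlr7 0.047, Casp1 0.65 for OVA_Rg3 against control. Cd14 and Casp4 kept a negative sign against control under every setting listed. Myd88, called lower in OVA lungs as deposited, had scaled changes near 0 of either sign. Pycard, called higher there after scaling, was below 0 with array weights and, as deposited, with the 3 libraries left out. Casp1, called higher with scaling and those libraries left out, was called lower with array weights (limma adjusted p = 0.0344).

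When each library was left out in turn, OVA against control had 2 to 4 called members and 4412 to 7447 called genes as deposited, and 0 to 2 and 1022 to 2820 after scaling. OVA_Rg3 against OVA had 0 called members and 0 to 3 called genes as deposited, and 0 and 0 to 1 after scaling. OVA_Rg3 against control had 0 to 2 called members and 1063 to 2574 called genes as deposited, and 0 and 173 to 1154 after scaling. For OVA against control the log2 change over both scales ranged for Tlr2 from -0.81 to -0.027, Tlr4 from -0.83 to 0.013, Tlr7 from -0.23 to 0.42, Myd88 from -0.99 to 0.11, Cd14 from -1.85 to -0.52, Casp1 from -0.48 to 1.15, Casp4 from -1.41 to -0.20, Pycard from -0.075 to 1.01, Gsdmd from -0.81 to 0.50. For OVA_Rg3 against OVA the log2 change over both scales ranged for Tlr2 from -0.36 to 0.33, Tlr4 from -0.018 to 0.53, Tlr7 from -0.39 to 0.038, Myd88 from -0.33 to 0.42, Cd14 from -0.16 to 0.70, Casp1 from -0.75 to 0.15, Casp4 from -0.33 to 0.47, Pycard from -0.66 to -0.069, Gsdmd from -0.57 to 0.49. For OVA_Rg3 against control the log2 change over both scales ranged for Tlr2 from -0.83 to -0.0054, Tlr4 from -0.49 to 0.13, Tlr7 from -0.35 to 0.19, Myd88 from -0.80 to -0.079, Cd14 from -1.25 to -0.55, Casp1 from -0.58 to 0.58, Casp4 from -1.16 to -0.30, Pycard from -0.28 to 0.46, Gsdmd from -0.76 to 0.44. Tlr7 passed the filter in 10 of these 15 fits.

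Depth limits the scarce genes most: most values of Nlrp3 and the lower ones of Tlr2 and Tlr7 rest on few fragments, and each of the 10 genes had under 6 implied fragments in OVA_Rg3 1, where Casp4 had 0.761. In control 2 Tlr2, Tlr4, Tlr7, Nlrp3, Casp1 and Pycard had under 3. P-values measure the spread between mice within this series alone.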

Other observations

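OVA libraries did not form a single level for several of the 10 genes. OVA 1 was the highest OVA library for Tlr4, Tlr7, Myd88, Cd14, Casp1, Pycard and Gsdmd, OVA 2 for Tlr2 and Casp4, and OVA 3 for Nlrp3. For Casp4 OVA 1 had 3.64 FPKM beside a Casp1 value of 12.9, a ratio of 3.54, the highest of the 15 libraries. The summed monocyte and macrophage markers were 185, 96.3, 59.0, 58.7 and 43.1 FPKM in OVA 1 to 5. OVA 1 and OVA 2, the highest OVA libraries for Cd14, Myd88 and Gsdmd, also had the highest sums. This was not particular to macrophages. Endothelial markers summed to 387, 314, 62.8, 64.9 and 71.3 in OVA 1 to 5, and alveolar type 2 markers to 10042.5, 5821, 1520, 1374.5 and 991. Neutrophil sums and those of club and ciliated cells did not follow this order. The part of any of these cells in the values of the 10 genes was not tested.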
